A study of Mus musculus with 12 samples.

Results

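Small nucleolar RNAs (snoRNAs) and the related small Cajal body RNAs (scaRNAs) guide the chemical modification of other RNAs. C/D box snoRNAs, named Snord, direct ribose methylation and carry a C box near the 5′ end and a D box near the 3′ end. H/ACA box snoRNAs, named Snora, direct pseudouridylation and end with an ACA triplet 3 nt before their 3′ end, and scaRNAs, named Scarna, act on spliceosomal RNAs in Cajal bodies. Most mammalian snoRNAs are cut from introns of host genes, and several, U3 and U14 (Snord14) among them, are needed to process the ribosomal RNA precursor. Pieces of snoRNAs of about the length of miRNAs appear in small RNA libraries, and these pieces are described here.

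The members were all 1558 mouse GENCODE transcripts of biotype snoRNA or scaRNA, which form 1307 rows once genes of identical sequence, or annotated over the same place, were joined. A deposited sequence (a tag) was counted where it matched such a transcript exactly, over its full length, on the sense strand, and matched no miRNA hairpin. Of 70809892 accepted reads in 12 libraries, 102245 (0.144%) were of this kind, in 1860 distinct tags. These reads fell on 336 rows, of which 159 had at least 10 reads and 49 had a read in all 12 libraries. The 20 rows with most reads held 88.7% of the reads.

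The libraries came from size-selected hippocampal RNA of individual male C57BL/6NCrl mice aged 6 to 8 weeks. Untreated home-cage mice (NT) were compared with mice killed 0.5 h, 1 h, 3 h, 6 h or 24 h after electroconvulsive shock (ECS), which makes neurons across the brain fire together. Each of the 6 conditions was sequenced once in each of 2 time courses, marked by the suffixes -1 and -2, and no sham-treated mice are among these samples. Each library holds RNA of all hippocampal cells, so fewer cells of a type and less RNA per cell cannot be told apart.

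Library depth lay between 1897490 and 7657222 accepted reads, and 1162 to 20036 of them were snoRNA reads. Rows of the neuronal miRNAs miR-124, miR-9 and miR-128 summed to between 18382 and 114171 reads per 1000000 accepted reads (RPM), those of the muscle miRNAs miR-1, miR-133a and miR-206 to between 615 and 9550 RPM. Tags of 18 or 19 nt made up 49.0% of all accepted reads in NT-1, between 6.73% and 15.8% in the other libraries of the first time course, and between 1.68% and 5.87% in the second time course. The shortest tag deposited was 18 nt, so shorter pieces were not counted, and this difference in length stands beside every comparison of the time courses below.

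Some of the sequences that carried many reads are shown as whole transcripts (GENCODE M21, GRCm38, DNA letters, 5′ to 3′), each with its most frequent tag in capitals. They were chosen because they show the 3 kinds of position that the reads took. In these examples U3 gave an internal tag, the other C/D box genes gave tags at or next to the 5′ end, and the H/ACA box genes gave tags near the 3′ end, which does not hold for every gene of either class.
Rnu3b3 (U3, chr11:87448627-87448842, plus strand): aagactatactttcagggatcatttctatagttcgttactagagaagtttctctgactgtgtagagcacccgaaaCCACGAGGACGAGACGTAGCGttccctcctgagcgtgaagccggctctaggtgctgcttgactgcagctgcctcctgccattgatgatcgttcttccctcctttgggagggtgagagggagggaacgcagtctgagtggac
Snord14c (chr9:40803583-40803668, plus strand): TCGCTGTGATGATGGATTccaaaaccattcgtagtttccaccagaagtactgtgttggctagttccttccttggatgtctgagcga
Snord49a (chr11:62603450-62603521, plus strand): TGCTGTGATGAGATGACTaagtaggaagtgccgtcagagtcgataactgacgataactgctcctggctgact
Gm22486 (Snord94 in RefSeq, chr6:71882557-71882693, minus strand): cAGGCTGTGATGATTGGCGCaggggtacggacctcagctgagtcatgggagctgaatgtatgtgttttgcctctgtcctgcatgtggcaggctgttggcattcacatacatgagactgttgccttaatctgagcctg
Snora41 (chr1:63179004-63179135, plus strand): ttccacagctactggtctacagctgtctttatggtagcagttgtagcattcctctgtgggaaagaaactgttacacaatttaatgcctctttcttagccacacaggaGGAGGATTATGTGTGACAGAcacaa
Snora16a (chr4:132309465-132309600, plus strand): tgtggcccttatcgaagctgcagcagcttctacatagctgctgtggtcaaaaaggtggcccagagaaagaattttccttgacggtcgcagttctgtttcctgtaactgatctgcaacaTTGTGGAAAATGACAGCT

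U3, the C/D box RNA that is needed for maturation of the small ribosomal subunit, was the source of most reads. Its 6 rows held 57219 reads, 56.0% of all snoRNA reads. In the first time course U3 reads stood at 660 RPM in NT-1, 887 in 0.5h-1, 480 in 1h-1, 2698 in 3h-1, 186 in 6h-1 and 956 in 24h-1. In the second they stood at 1008 RPM in NT-2, 533 in 0.5h-2, 793 in 1h-2, 543 in 3h-2, 275 in 6h-2 and 547 in 24h-2. The 2 time courses overlapped, 3h-1 was the highest library and 6h-1 the lowest. With the U3 rows joined, edgeR's quasi-likelihood test gave a log2 difference of -0.71 (SE 0.49, second minus first time course, adjusted p = 0.249). Reads of the U3 rows Rnu3b1, Gm24826 and Gm24949 were shared by near-identical copies and divided equally among them, so their separate counts are uncertain.

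Nearly all U3 reads came from a single place. Tags that started at positions 74 to 78 of the transcript made up 55303 reads, 96.6% of the U3 reads. The 5 most frequent of these tags differed by 1 to 3 nt at their ends, as printed here with their reads over 12 libraries.
positions 76 to 96, 16065 reads: ccacgaggacgagacgtagcg
positions 76 to 95, 14225 reads: ccacgaggacgagacgtagc
positions 77 to 96, 11078 reads: cacgaggacgagacgtagcg
positions 76 to 93, 7960 reads: ccacgaggacgagacgta
positions 75 to 96, 2384 reads: accacgaggacgagacgtagcg

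The length of this U3 fragment differed between libraries. Tags of 18 or 19 nt were 91.7% of the reads from this place in NT-1, 21.9% in 0.5h-1, 33.4% in 1h-1, 24.5% in 3h-1, 41.4% in 6h-1 and 8.90% in 24h-1. They were 5.05% in NT-2, 4.69% in 0.5h-2, 4.23% in 1h-2, 4.88% in 3h-2, 14.5% in 6h-2 and 4.65% in 24h-2. NT-1, where almost every tag was short, and 6h-2, the shallowest library, were the highest of their time courses. The place itself held between 88.9% and 99.4% of the U3 reads in each of the 12 libraries.

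**Figure D1:**
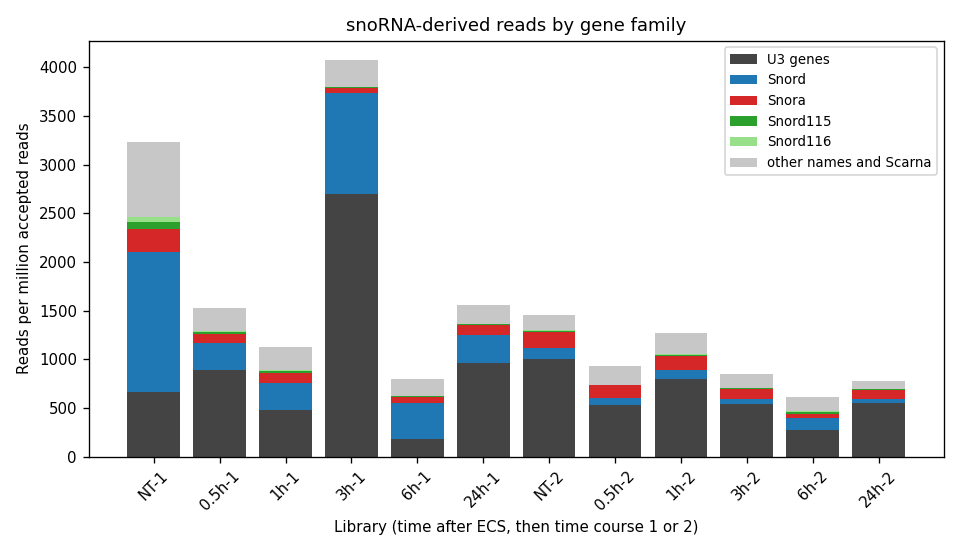
RPM (y axis) of snoRNA genes in each of the 12 libraries (x axis), stacked by gene family. U3 genes (dark grey) reached 2698 RPM in 3h-1 against 186 to 1008 RPM in the other libraries, and the Snord segment (blue) was largest in NT-1 and 3h-1.

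Outside U3, genes named Snord held 20334 reads (19.9%), genes named Snora 8005 (7.83%), the Snord115 array 1078 (1.05%), the Snord116 array 531 (0.519%) and the 9 Scarna genes 202 (0.198%). Most of the Snord reads came from Snord14c and Snord14d, 2 U14 genes in introns of Hspa8, which shared nearly every tag and together held 14670 reads. Among genes with other names, Gm24455, an H/ACA box gene inside Taf1d, held 2549 reads and Gm22486, which RefSeq names Snord94, held 1637. Counts of tags give the abundance of short pieces and not that of the full-length RNAs, which are longer than the sizes taken from the gel.

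Reads of genes named Snord, most of them from Snord14c and Snord14d, lay mainly at the 5′ end, and reads of genes named Snora lay more often at the 3′ end. Tags that started within 5 nt of the annotated 5′ end made up 84.4% of Snord reads and 0.236% of Snora reads, as means over 12 libraries. The difference of 84.2 percentage points (SD 8.39, higher in 12 of 12 libraries) had a two-sided exact permutation p of 0.000488, the smallest that flipping the families within 12 libraries can give. Tags that ended within 5 nt of the 3′ end made up 49.3% of Snora reads and 3.53% of Snord reads, a difference of 45.8 points (SD 12.3, 12 of 12 libraries, exact permutation p = 0.000488). Without the most abundant gene of each family the differences were 59.5 and 40.2 points.

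Of 14672 Snord14c and Snord14d reads, 99.3% started at the first base, and of 1737 Snord49a reads, 96.4% did. Of 3887 Snora41 reads, 98.6% started at position 108 of a transcript of 132 nt. Snora16a ended at its last base in 95.1% of 1912 reads. Among C/D box genes with at least 30 reads, outside U3, 23 of 54 had more than 50% of their reads at the 5′ end, 13 at the 3′ end and 18 elsewhere. Among 12 H/ACA box genes, 1 was mostly at the 5′ end, 7 at the 3′ end and 4 elsewhere.

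**Figure D2:**
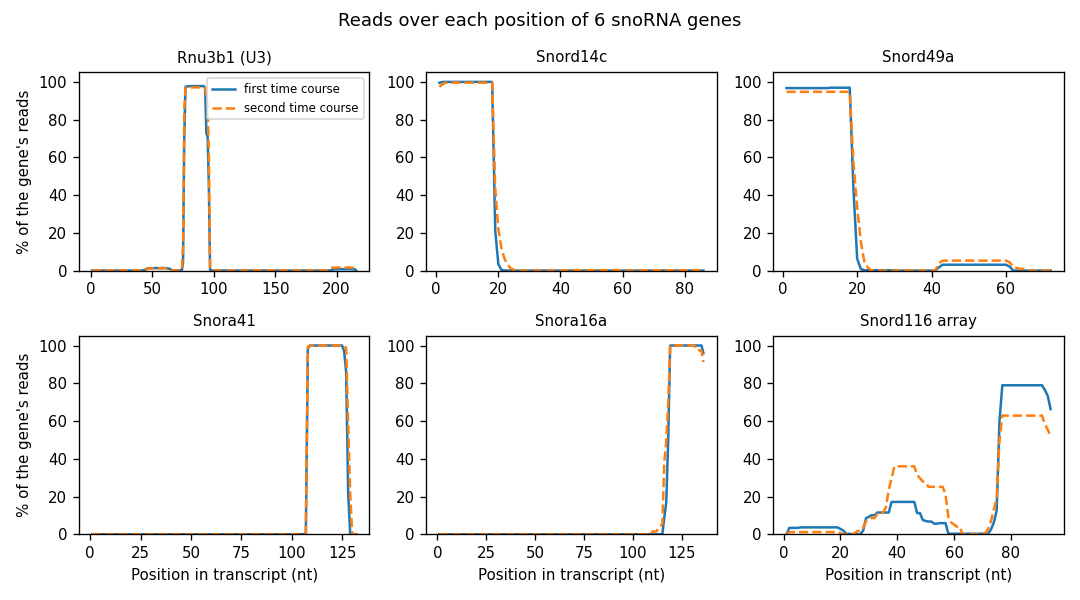
Percent of each gene's reads (y axis) that cover each position of the transcript in nt (x axis) for 6 genes, summed over the 6 libraries of the first (solid) or the second (dashed) time course. Reads of Snord14c and Snord49a lay at the 5′ end, those of Snora41, Snora16a and Snord116 near the 3′ end, and those of U3 at positions 76 to 96, in both time courses.

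Most Snord reads contained the C box letters. The letters TGATG, searched on the sense strand only, stood in 92.3% of Snord reads, against 17.9% of all 20-nt windows of the same transcripts and 1.49% of all accepted reads. Of the 20334 Snord reads, 14670 were of Snord14c and Snord14d, whose main tag holds the letters, and the share without these genes was not computed. The C/D box arrays differed, with 47.6% of Snord115 reads against 39.1% of windows, and 2.82% of Snord116 reads against 10.4% of windows. The letters are in capitals in the 3 tags printed next, at the last place where they occur. The Snord14c tag also holds them at an earlier, overlapping place, so its capitals need not mark the C box.
Snord14c: tcgctgtgaTGATGgatt
Snord49a: tgctgTGATGagatgact
Gm22486: aggctgTGATGattggcgc
In Snora reads these letters were absent, while ACA placed 3 nt before the end of the tag stood in 40.8% of reads, against 2.26% of 20-nt windows of Snora transcripts and 4.94% of all accepted reads. Some Snora41 tags are counted there through an ACA that is not placed 3 nt before the end of the transcript, and without Snora41 the share was 47.2%. The tags of Snora16a and Gm24455 reach the ACA box of their transcripts, in capitals here, although only that of Snora16a runs on to the last base.
Snora16a: ttgtggaaaatgACAgct
Gm24455: tgtgggaaggaactacaagACA

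Tags of the 2 classes also differed in length. Snord tags averaged 18.8 nt and Snora tags 20.1 nt, a difference of 1.33 nt (SD 0.413, longer in 12 of 12 libraries, exact permutation p = 0.000488). Without the most abundant gene of each family the difference was 0.872 nt. With box classes read from sequence it was 0.986 nt (longer in 11 of 12 libraries). Of all Snord reads, 69.3% were 18 nt long, at the lower limit of the deposited tags, so the true length of these pieces was not observed. U3 tags peaked at 20 nt (47.6%) and Snora tags at 20 nt (34.1%), and tags of miRNA hairpins had 36.6% at 20 nt and 30.1% at 22 nt.

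**Figure D3:**
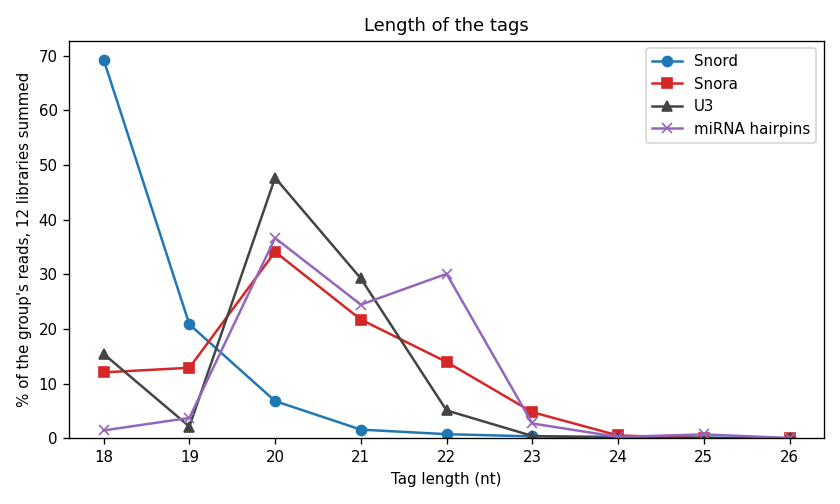
Percent of the reads of each group (y axis) by tag length in nt (x axis), with the 12 libraries summed. Snord reads were highest at 18 nt (69.3%), the shortest length deposited, while U3, Snora and miRNA hairpin reads were highest at 20 nt.

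Start positions were well defined. In genes with at least 10 reads in a library, the most frequent start held 76.0% of a snoRNA gene's reads and 66.8% of a mitochondrial tRNA gene's reads (means over 12 libraries). The difference of 9.24 points (SD 7.63, higher in 11 of 12 libraries) had an exact permutation p of 0.000977. The sign turned when reads were summed over genes, to -15.5 points (0 of 12 libraries higher, exact permutation p = 0.000488), and with at least 30 reads per gene the difference was 2.36 points (p = 0.544, exact permutation). Of 79 rows with at least 10 reads in both time courses, arrays left out, 56 had the same most frequent start in both and 66 had it within 1 nt.

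The reads were nearly all from the sense strand. Antisense tags of the same genes gave 61 reads in all, 26 of them in NT-1 and 0 in 3h-2, 6h-2 and 24h-2, where a count of 0 allows up to 3 reads. Sense minus antisense was 0.151% of accepted reads (SD 0.106, 12 of 12 libraries), with sense reads 1676 times as many. Members were chosen by a sense match. A tag was counted as antisense only where it matched no annotated small RNA in sense and no miRNA hairpin. Sense and antisense counts were thus not drawn alike, and no p-value is given.

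The second time course was a biological replicate of the first, and its comparison asks how far the snoRNA reads were repeated. The snoRNA share of accepted reads was 0.323% in NT-1, 0.153% in 0.5h-1, 0.112% in 1h-1, 0.407% in 3h-1, 0.0796% in 6h-1 and 0.155% in 24h-1. It was 0.146% in NT-2, 0.0926% in 0.5h-2, 0.127% in 1h-2, 0.0846% in 3h-2, 0.0612% in 6h-2 and 0.0778% in 24h-2. The second time course was lower at 5 of 6 time points, and the groups overlapped. The difference of -0.107 percentage points (SD 0.124) had a two-sided exact permutation p of 0.0625, where 64 flips allow no p under 0.0312. The 95% Wilson interval of 6h-2, the shallowest library, ran from 0.0578% to 0.0649%, so counting error was small beside the spread between libraries.

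This difference moved with tag length. Without U3 the share was 0.107% in the first and 0.0364% in the second time course, lower at 6 of 6 time points (exact permutation p = 0.0312). With tags and accepted reads of at least 20 nt only, the shares were 0.0964% and 0.0860%, a difference of -0.010 points with 3 of 6 time points higher (exact permutation p = 0.844).

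Snord genes held 29.7% of snoRNA reads in the first time course and 8.88% in the second, lower at 6 of 6 time points. Snora genes held 6.15% and 11.5%, higher at 6 of 6. Both differences had an exact permutation p of 0.0312 and an adjusted p of 0.0625 over 6 families, which misses the threshold. The U3 share was 45.4% and 61.5%, higher at 4 of 6 time points (exact permutation p = 0.125). With tags of at least 20 nt the Snord difference was -4.21 points in place of -20.8, and the Snora difference 4.54 in place of 5.34 (adjusted p = 0.469 for both, exact permutation). The Snora reads include those of Snora36b, described below, most of which came from the place of a miRNA. The Snora share without them was not computed.

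Gene by gene, 68 snoRNA rows had enough reads (10 in at least 2 libraries) to be tested in the table of all small RNA rows. Of these, 34 passed an adjusted p of 0.05 in edgeR's quasi-likelihood test, 3 higher and 31 lower in the second time course. In the whole table of 522 rows 45.8% passed, 22.2% higher and 23.6% lower. The median log2 difference was -1.66 over the snoRNA rows and -0.11 over all rows. The table is mostly miRNA rows (405), with a median of 0.43. Other classes also fell, with medians of -1.20 over 21 mitochondrial tRNA rows, -1.22 over 11 snRNA rows and -1.82 over 13 miscellaneous RNA rows. Of these, 5, 5 and 8 rows passed as lower, so the fall was not particular to snoRNA rows. Scaling by accepted reads moved the median of all rows to 0.29, and 25 snoRNA rows then passed, 3 higher and 22 lower, with 133 higher and 79 lower of all 522 rows.

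Most of the 10 rows with the smallest p were C/D box genes with tags at the 5′ end. Gm22486 (Snord94 in RefSeq, a guide for U6 snRNA) stood at 92.5 RPM in NT-1, 19.7 in 0.5h-1, 18.9 in 1h-1, 160 in 3h-1, 16 in 6h-1 and 17.7 in 24h-1. In the second time course it stood at 3.56 RPM in NT-2, 2.09 in 0.5h-2, 1.89 in 1h-2, 1.84 in 3h-2, 1.58 in 6h-2 and 1.51 in 24h-2. The time courses did not overlap, and within the first, NT-1 and 3h-1 stood above the other libraries. Its log2 difference was -4.43 (SE 0.63, adjusted p = 0.000515, edgeR).

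Snord14c and Snord14d together stood at 949 RPM in NT-1, 181 in 0.5h-1, 160 in 1h-1, 979 in 3h-1, 274 in 6h-1 and 212 in 24h-1. In the second time course they stood at 68.6 RPM in NT-2, 36.7 in 0.5h-2, 58.8 in 1h-2, 18.3 in 3h-2, 78.5 in 6h-2 and 21.5 in 24h-2. Again every library of the second time course lay under every library of the first. The joined row fell by 3.39 on the log2 scale (SE 0.58, adjusted p = 0.00109, edgeR).

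Snord49a stood at 146 RPM in NT-1 and 21.1 to 39.9 RPM in the 5 other libraries of the first time course, and at 3.16 to 8.43 RPM in the second (log2 difference -3.27, SE 0.49, adjusted p = 0.000515, edgeR). Of the 10 rows with the smallest p, Gm22680 and Gm25894 lie in Snhg1, Snord73a in Rps3a1, Snora16a in Snhg12 and Gm22981 on chromosome 12. Their log2 differences ran from -2.56 (Snora16a) to -3.97 (Gm22981), and most reads of Gm22981 were shared with other genes, so its count is uncertain. Snora16a, the sole H/ACA box gene of the 10, stood at 199 RPM in NT-1, at 16.1 to 39.1 RPM in the rest of the first time course and at 3.84 to 23.2 RPM in the second.

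**Figure D4:**
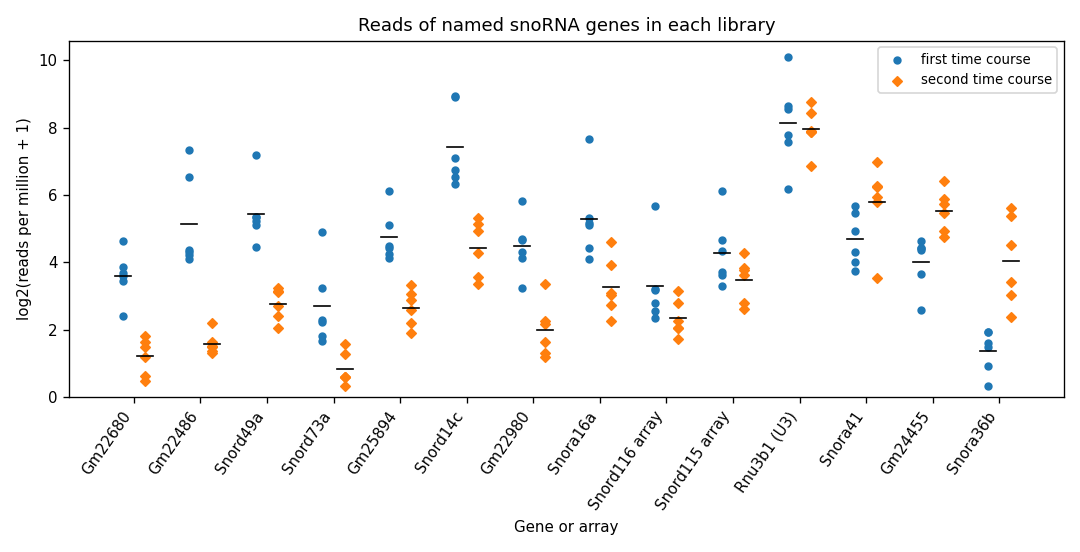
log2(RPM + 1) of 14 genes or arrays (x axis), each point 1 library, circles for the first and diamonds for the second time course, with bars at the mean of 6 libraries. Gm22486, Snord49a and Snord14c do not overlap between time courses, U3 and Snord115 do, and Snora36b is higher in the second.

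The 3 rows that rose were Snora36b, Gm24119 and Gm24455. Gm24455, the H/ACA box gene of Taf1d, stood at 20.4 RPM in NT-1, 19.5 in 0.5h-1, 20.4 in 1h-1, 11.6 in 3h-1, 5.04 in 6h-1 and 23.8 in 24h-1. In the second time course it stood at 57.7 RPM in NT-2, 43.1 in 0.5h-2, 84.9 in 1h-2, 52.0 in 3h-2, 29.5 in 6h-2 and 25.9 in 24h-2. Its groups did not overlap (log2 difference 1.18, SE 0.44, adjusted p = 0.0413, edgeR), but it passed in 1 of 12 fits that left out a library. Gm24119, inside Slc25a3, averaged 0.391 RPM (SD 0.354, n = 6) over the first time course and 4.47 RPM (SD 2.97, n = 6) over the second, where 6h-2 had no read (log2 difference 3.19, SE 0.80, adjusted p = 0.00670, edgeR).

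Snora41, the H/ACA box gene with most reads, stood at 12.5 to 50.2 RPM in the first and 10.5 to 124 RPM in the second time course, which overlapped (log2 difference 0.75, SE 0.61, adjusted p = 0.320, edgeR).

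Snora36b reads came from the place of a miRNA. It stood at 0.272 to 2.86 RPM in the first and 4.22 to 47.7 RPM in the second time course (log2 difference 3.02, SE 0.60, adjusted p = 0.00207, edgeR). Of its 1007 reads, 969 (96.2%) started at position 68, 1 base before mmu-miR-664-5p, which RefSeq places at positions 69 to 89 of the same transcript. A further 9793 reads of Snora36b matched the Mir664 hairpin and were left out by the rule. The log2 difference and the start position therefore describe only the 1007 reads that the rule kept. The left-out reads overlapped between the time courses, from 6 in 6h-1 to 1354 in 3h-1, and from 80 in 6h-2 to 2969 in 1h-2. Their difference was not tested. The transcript is shown with its most frequent tag in capitals, and the RefSeq miRNA (GRCm38.p6, RNA letters) with its seed, bases 2 to 8, in capitals.
Snora36b (chr1:185242907-185243038, plus strand): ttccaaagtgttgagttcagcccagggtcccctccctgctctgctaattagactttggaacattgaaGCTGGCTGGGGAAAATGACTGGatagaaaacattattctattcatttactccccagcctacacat
mmu-miR-664-5p: cUGGCUGGggaaaaugacugg

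With tags of at least 20 nt only, 14 of 41 snoRNA rows tested passed, 2 higher and 12 lower, against 31.6% of all rows, 19.8% higher and 11.8% lower. All 14 had passed with tags of every length, while 8 rows passed only with every length and 19 with neither. The snoRNA median was then -0.82 and that of all rows 0.10. By class the median was 0.27 over miRNA rows, -0.16 over mitochondrial tRNA rows, -0.32 over snRNA rows and -0.15 over miscellaneous RNA rows. Gm22486 stood at -2.37 (adjusted p = 0.00546) and Snord49a at -1.58 (adjusted p = 0.0462), Gm25894 no longer passed (-1.52, adjusted p = 0.0710), nor did AF357428 (-1.47, adjusted p = 0.143), while Gm22980 stayed at -3.30 (adjusted p = 0.00251) and Snora36b was at 2.70 (adjusted p = 0.00326, all edgeR). The change was smaller than with tags of every length in 26 of 41 rows.

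**Figure D5:**
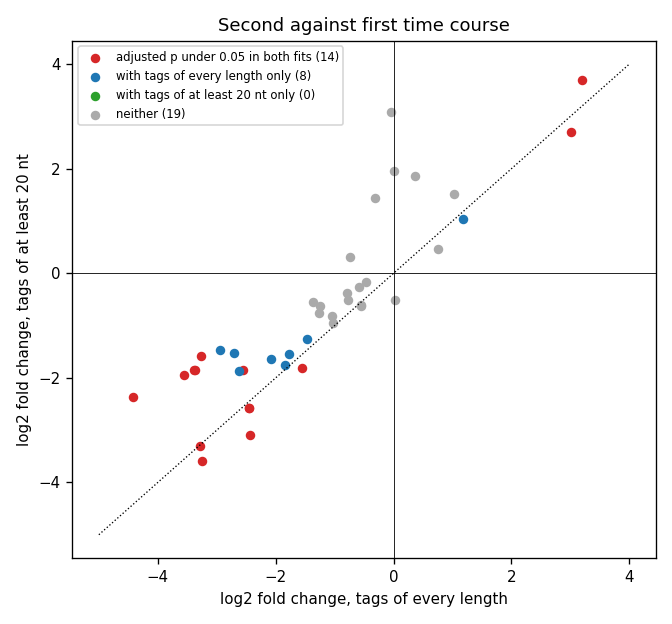
log2 difference, second minus first time course, of 41 snoRNA rows with tags of every length (x axis) and with tags of at least 20 nt (y axis). Colours mark which fits passed an adjusted p of 0.05 in edgeR, 14 rows in both and 8 with every length only, and the dotted line marks equal values.

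The Prader-Willi locus, on chromosome 7 inside the neuronal host transcript Snhg14, holds the repeated C/D box genes Snord115 and Snord116. In humans loss of the Snord116 cluster is linked to Prader-Willi syndrome, and Snord115 has a stretch complementary to the serotonin receptor transcript Htr2c. The annotation held 136 Snord115 transcripts with 56 distinct sequences and 70 Snord116 transcripts with 27. The most frequent Snord115 sequence, present in 33 copies, is shown with its Htr2c complement in capitals, and a Snord116 copy with its most frequent tag in capitals.
Snord115 (Gm26434, chr7:59615744-59615822, minus strand): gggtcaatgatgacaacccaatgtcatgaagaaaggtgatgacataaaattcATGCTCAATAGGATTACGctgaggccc
Snord116 (Snord116l9, chr7:59897161-59897254, minus strand): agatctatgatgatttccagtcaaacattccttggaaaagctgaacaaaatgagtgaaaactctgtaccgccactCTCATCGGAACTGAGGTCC

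Both arrays gave more tags at the 3′ end than at the 5′ end. In the summed libraries 73.6% of Snord116 reads ended within 5 nt of the 3′ end and 2.64% started within 5 nt of the 5′ end. For Snord115 the values were 49.3% and 5.45%. Tags over at least 10 nt of the Htr2c complement made up 346 of 1083 Snord115 reads (31.9%), and 0 reads lay wholly in it. The share of windows of the transcript that overlap the complement as much was not computed. The value therefore shows no preference for the complement. The complement is 18 nt long, the shortest tag length deposited.

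Snord115 stood at 68.2 RPM in NT-1, 24.2 in 0.5h-1, 19.2 in 1h-1, 12.1 in 3h-1, 11.5 in 6h-1 and 8.83 in 24h-1. In the second time course it stood at 13.3 RPM in NT-2, 5.09 in 0.5h-2, 11.4 in 1h-2, 12.7 in 3h-2, 18.4 in 6h-2 and 5.90 in 24h-2. NT-1 was far above the rest and the groups overlapped (log2 difference -1.26, SE 0.52, adjusted p = 0.0584, edgeR).

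Snord116 stood at 49.8 RPM in NT-1 and 4.12 to 8.25 RPM in the 5 other libraries of the first time course, and at 2.33 to 7.86 RPM in the second. Its log2 difference of -1.46 (SE 0.55, adjusted p = 0.0419, edgeR) passed in 1 of 12 fits that left out a library. Of the single-copy C/D box genes of this locus, Snord64 had 53 reads and Snord107 had 6. Of the 4 rows of the locus, 2 were tested and 1 passed, lower, with a median of -1.36, while 45.8% of all rows passed and 23.6% were lower. With tags of at least 20 nt, 0 of 2 passed in edgeR, where Snord116 stood at -1.26 (adjusted p = 0.113) and Snord115 at -0.75 (adjusted p = 0.295).

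Short pieces of the snoRNAs that serve as loading references on miRNA arrays were nearly absent. The full-length RNAs are longer than the sizes taken from the gel, so their abundance was not measured. Snord65 had 0 reads, Snord68 had 3 and Snord87 had 5 among 70809892, all 8 in the second time course, and none was tested. A count of 0 in a library allows up to 3 reads.

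The 9 Scarna genes had 202 reads, 49 of them in NT-1, and summed to 1.32 to 13.3 RPM in the first and 1.10 to 3.16 RPM in the second time course. Scarna3a led with 75 reads, 100% of them within 5 nt of the 5′ end. A further 10119 reads of Scarna3a and 4956 of Scarna3b matched a miRNA hairpin and were left out by the rule. The counts, positions and tests of these 2 genes therefore describe only the few reads that the rule kept. Scarna10 had 42 reads and Scarna2 had 33. Scarna3a and Scarna10 were tested, and Scarna3a passed (log2 difference -1.82, SE 0.68, adjusted p = 0.0405, edgeR), in 2 of 12 fits that left out a library.

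After ECS, no snoRNA row passed at any time. The question was whether a synchronous bout of neuronal activity changed these reads within 24 h. Of 68 rows tested, 0 passed at each of the 5 times, and 0% of all 522 rows did (edgeR). At an unadjusted p under 0.05 the count was 0 snoRNA rows at each time, against 4 to 10 of all 522 rows. DESeq2 also passed 0 snoRNA rows, and 2 of all 522 rows at 3 h. It had 1 to 3 snoRNA rows at an unadjusted p under 0.05, against 9 to 35 of all rows. With 2 libraries a group the median standard error was 1.55 to 1.58 on the log2 scale in edgeR. This fit had no time course factor, so differences between the time courses entered that error. With the time course as a block, 1 to 4 snoRNA rows (edgeR) and 2 to 9 (DESeq2) had an unadjusted p under 0.05. Of all rows, 14 to 51 (edgeR) and 25 to 66 (DESeq2) did.

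For U3, joined, the log2 difference from NT was largest at 3 h, with 1.86 (SE 1.01, adjusted p = 0.933, edgeR), and lowest at 6 h, with -0.87 (SE 0.99, adjusted p = 0.985, edgeR). At 3 h the high value came from 3h-1, with 2698 RPM, while 3h-2 with 543 RPM lay under NT-2 with 1008. The smallest adjusted p of any snoRNA row was 0.869, at 24 h (edgeR). None passed among the rows with the smallest p at each time in edgeR, which were Snora36b (log2 difference 3.09 at 0.5 h), Snord100 (-3.01 at 1 h), Gm22858 (-4.95 at 3 h), Snord89 (-6.67 at 6 h) and Scarna10 (-3.83 at 24 h).

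The snoRNA share of accepted reads averaged 0.234% in the 2 untreated and 0.135% in the 10 ECS libraries. The difference of -0.0992 points, with 1 of 10 ECS libraries above the untreated library of its time course, had an exact permutation p of 0.167 over 36 placements of the untreated label, which allow no p under 0.0278. Without 3h-1, the sole library above its untreated one, the difference was -0.129 points, and its exact permutation p of 0.0333 is the smallest that the remaining placements allow, fixed by which library was left out. With tags and reads of at least 20 nt the difference was 0.012 points (exact permutation p = 0.778), and NT-1 holds the highest share of 18 and 19 nt tags of all 12 libraries.

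No family's share of snoRNA reads passed the test after ECS. Snord genes held 26.1% in untreated and 17.9% in ECS libraries (adjusted p = 0.611), Snora genes 9.40% and 8.70% (adjusted p = 0.750), and Snord116 0.975% and 0.476% (adjusted p = 0.583, all exact permutation). For U3 the means were 44.8% and 55.1% (exact permutation p = 0.556).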

How the data were processed

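Small RNA of the ~18 to 24 nt range, per the labels, was cloned and sequenced from 12 hippocampi. The authors removed reads with no or short inserts and deposited, for each library, every distinct tag with its raw read count, neither aligned nor normalized. The study mapped reads to NCBI mouse assembly 37, and here tags were matched to GENCODE M21 transcripts and RefSeq miRNA hairpins of GRCm38, with no genome. Members and lists were chosen with earlier results of these data known.

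A tag that matched several rows was divided equally among them, and for positions and lengths it was given to the row with most reads. Rows were genes of identical sequence or annotated over the same place and strand, and Snord115 and Snord116 were 1 row each. U3 rows shared at least 0.3 of their 18-mers with Rnu3 genes. Of the member reads, 71.8% were shared by 2 or more rows, and 26.6% also matched another kind of transcript, mostly retained introns of host genes (22.4%). A further 649128 reads that also matched a miRNA hairpin were left out. Box classes were read from sequence: C/D where TGATG stood in the first 30 nt and CTGA in the last 25 nt, and H/ACA where ACA stood 3 nt before the end.

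Counts of all small RNA rows with at least 10 reads in 2 libraries were tested with edgeR 4.0.16 in R 4.3.3 (quasi-likelihood, TMM, Benjamini-Hochberg). For ECS a group had 2 libraries. For the time courses the time point was a factor. Single values were tested by two-sided exact permutation (Python 3.11.15, scipy 1.17.1). The suffix marks the time course, so libraries of a suffix share a batch, and their deviations from the time point means correlated between 0.417 and 0.774 over 15 pairs of time points. p-values measure the spread between mice and libraries. They do not measure the spread between genes of a family, nor that between time courses, of which there were only 2. No 2 libraries agreed within sampling noise (the smallest chi-square per degree of freedom was 32.8). Intervals cover counting error only. Depth ranged from 1897490 to 7657222 reads.

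Named were the 20 rows with the highest mean share, the 10 with the smallest p past the threshold in each comparison, Snord65, Snord68, Snord87, both arrays and the 3 most abundant Scarna genes, and the other genes named were chosen after their values were seen. Alternatives were DESeq2 1.42.0, other scalings and filters, looser and stricter matches, and left-out libraries. Joined U3 rows, tags of at least 20 nt, U3 apart, box classes, DESeq2 with a block and motif shares without Snora41 were added after seeing the data. Tests were checked on simulated data.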

Additional observations from a re-analysis of the deposited data

Results flagged for a closer look

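In each time course of 6 libraries, a library that lay far from the other 5 was looked for in 28 measures (the snoRNA share, 7 family shares and the 20 rows with the highest mean share), 56 groups in all. In all 18 were found, 10 of them in NT-1 and 3 in 3h-1. For independent measures chance alone gives about 1 in 20 groups. That rate does not apply here, because measures share reads and 20 rows were picked by a mean that 1 high library raises. NT-1 lay above the rest for Snora16a (199 RPM), Snord49a (146 RPM), Gm25854 (71.3 RPM), Gm25894 (69.1 RPM), Snord115 (68.2 RPM), Snord13 (57.7 RPM), Gm22980 (55.5 RPM), Gm23246 (50.3 RPM), Snord116 (49.8 RPM) and Rnu3a (21.7 RPM). NT-1 is also the library in which 49.0% of all accepted reads were 18 or 19 nt long, and the part of this in the high values was not tested.

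In 3h-1 the U3 rows Rnu3b1 (1089 RPM), Gm24826 (1087 RPM) and Gm24949 (502 RPM), which share their reads, lay above the other 5 libraries. In the second time course 6h-2, the shallowest library, had the highest Snord share of snoRNA reads (19.4%) and the lowest share of genes with other names (68.5%). Gm22486 was highest in NT-2 (3.56 RPM), Gm22980 in 1h-2 (9.17 RPM) and Gm25854 in 0.5h-2 (39.7 RPM).

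The effect of ECS had opposite signs in the time courses for 2 rows. Snora41 was higher than NT-1 in every ECS library of the first time course (by 18.8 RPM on average) and lower than NT-2 in every one of the second (by -69.2 RPM). Gm25854 was lower in every ECS library of the first (by -62.9 RPM) and higher in every one of the second (by 10.1 RPM). NT-1 is the library flagged above for Gm25854. These differences were not tested, and the number of such rows that chance would give was not worked out.

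Reads that matched both a snoRNA or scaRNA gene and a miRNA hairpin, which the rule left out, were many: 618881 for Mir1839, 10119 for Scarna3a, 9793 for Snora36b, 4956 for Scarna3b and 4548 for Mir3068. Antisense reads of snoRNA genes numbered 26 in NT-1, above the 3 that a count of 0 allows.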

How the results depend on the processing

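No snoRNA row passed after ECS under any alternative run, the time course as a replicate block included (0 snoRNA rows with edgeR and 0 with DESeq2). The block thus changed no snoRNA call. With DESeq2 and the block, 3 of all 522 rows passed at 3 h and 2 at 6 h. Between the time courses 24 to 32 snoRNA rows passed when 1 library was left out (147 to 211 of all rows), and 25 to 43 under other scalings, filters, matches or models (153 to 275 of all rows), but 14 with tags of at least 20 nt (137 of all 434). The difference between the time courses in the snoRNA share passed the threshold as a share of annotated small RNA reads (-0.602 points) and without U3 (-0.0708 points, with an SD of 0.0766 between time points), both at an exact permutation p of 0.0312, the smallest possible. After ECS that share turned to 0.0121 points with tags of at least 20 nt and had the smallest exact permutation p possible, 0.0333, without 3h-1 (-0.129 points, the range being -0.129 to -0.0910 with 1 ECS library left out). Family shares of uncalled sign turned between the time courses for Snord115 (0.0234 with the first 18 nt matched, 0.849 without the most abundant gene), Snord116 (0.0709 without that gene) and Scarna (0.156 without it, 0.0118 with tags of at least 20 nt). After ECS they turned with tags of at least 20 nt for Snora (2.01 points) and Scarna (0.0668 points). The start share against mitochondrial tRNA was 2.36 points with at least 30 reads and -15.5 with reads summed. Gm25854, uncalled, had a log2 difference of 0.072 with DESeq2 or its size factors, 0.42 with accepted reads, 0.31 with no filter and 3.08 with tags of at least 20 nt, and -0.41 to 0.47 with 1 library left out. Gm23246, uncalled, was at 0.30 with tags of at least 20 nt. The causes were not tested. The 5′ and 3′ end and length results kept their direction and side of the threshold under every alternative run.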

Other observations

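Host genes grouped by position, a grouping chosen after the values were seen, gave these counts. Of 147 rows with at least 10 reads by tag, 127 lay inside another gene on the same strand, 29 of them in a ribosomal protein gene, with 4116 reads. The 8 rows inside Snhg1, a non-coding host of C/D box genes, had 2749 reads, 27.2 to 158 RPM in the first and 12.9 to 29.0 RPM in the second time course, and of 4 tested 2 were lower in edgeR, where 23.6% of all rows were, and 1 of 4 passed with tags of at least 20 nt. The 9 rows inside Gas5, a growth-arrest host transcript, had 1095 reads and summed to 255 reads in 0.5h-2 against 22 to 82 in the other libraries of that time course. Gm23212 led there with 28.3 RPM in 0.5h-2 against 2.64 to 6.70 RPM in the other libraries of the second time course. Of the Gas5, Snhg1 and Rpl13a genes listed by name, 2 of 3, 1 of 1 and 4 of 4 annotated rows had reads (50, 33 and 64), and none was tested.

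The imprinted region of chromosome 12 that holds Rian had 23 rows, 13 of them with reads (2138 in all). They summed to 14.5 to 142 RPM in the first time course and reached 47.0 RPM in 0.5h-2, the highest library of the second. Gm25854 of this region gave internal tags, 71.5% of them from position 35, as its most frequent tag shows in capitals.
Gm25854 (chr12:109686798-109686869, plus strand): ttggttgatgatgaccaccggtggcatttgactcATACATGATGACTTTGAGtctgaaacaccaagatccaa
AF357428, another C/D box gene on this chromosome, started at position 3 in 93.6% of its reads. Snord118 (U8) and Snord13 (U13), which act on ribosomal RNA, gave tags from positions 48 (87.5% of reads) and 18 (77.5%) and not from the first base.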
